A study of Homo sapiens with 12 samples.

Results

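The 31 genes described here belong to cholesterol and fatty acid synthesis and to its control by the SREBP transcription factors. They were taken by symbol from a fixed list and are 31 of the 58721 genes in the count table. The rule for taking them used no measured value, but the list was chosen with earlier results of these data known. All 31 had enough counts to be tested, among 21013 genes tested in all. They were measured by RNA-seq in EW8 and TC71, which are Ewing sarcoma cell lines, that is, lines from a bone and soft tissue tumour driven by the EWS-FLI1 fusion. Both lines were infected in turn with a lentivirus for the Tet3G activator and with a lentivirus in which the TRE3G promoter drives c-Jun and c-Fos from 1 transcript, and were selected with geneticin and puromycin. Doxycycline turns on both proteins, which together form the transcription factor AP-1. The 4 groups were EW8 with vehicle (DMSO), EW8 with doxycycline at 2000 ng/ml, TC71 with vehicle and TC71 with doxycycline at 2000 ng/ml, each for 72 h and each with 3 libraries. The vehicle groups carry the same construct as the doxycycline groups. No cells with doxycycline but without the transgenes were analysed here, so what the drug does alone and what the induced proteins do cannot be told apart.

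Cholesterol is built from acetyl-CoA by way of mevalonate, isoprenoid diphosphates, squalene and lanosterol, and fatty acids are built from the same acetyl-CoA by way of malonyl-CoA. When sterols are scarce, SCAP carries the SREBP precursors from the endoplasmic reticulum to the Golgi, where they are cut, and the freed part enters the nucleus and binds sterol regulatory elements (SRE), often beside the factor NF-Y, which binds CCAAT. When sterols are plentiful, INSIG proteins hold SCAP back, so the genes of both pathways are known to rise and fall together in many cell types.

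The induction was present in every doxycycline library. JUN was at 20.3, 24.6 and 19.8 CPM (counts brought to 1 fixed library size with edgeR's TMM factors, a trimmed-mean scaling) in the EW8 vehicle libraries and at 504, 495 and 422 CPM with doxycycline. In TC71 it was at 18.04, 18.8 and 25.4 CPM with vehicle and at 748, 814 and 705 CPM with doxycycline. FOS ran from 35.9 to 37.6 CPM and from 999 to 1139 CPM in the EW8 groups, and from 11.2 to 12.1 CPM and from 1450 to 1686 CPM in the TC71 groups. These counts add the transgene to the endogenous gene. Totals were between 42860665 and 60853649 counts per library. TC71 vehicle replicate 1 stood apart from its group. Its chi-square per gene against the other two was 58.9 and 56.1, compared with 5.24 to 10.2 for the other 10 pairs of replicates. It was the lowest of its group for 29 of the 31 genes, compared with 45.3% of 10908 expressed genes, and its median log2 difference from the other two was -0.37 over the 31 genes and -0.02 over those 10908. For that reason the TC71 counts of genes are given below with and without it, and so are the TC71 values of single genes where leaving it out changed the call or the sign. The labels do not say that replicates were separate cultures, so p-values measure only the spread between these libraries. The Ewing sarcoma markers (CD99, NKX2-2, NR0B1, STEAP1, PAX7) were present in both lines, with summed levels of 1203 to 1268 CPM in EW8 vehicle, 1587 to 1623 CPM in EW8 doxycycline, 865 to 1022 CPM in TC71 vehicle and 1077 to 1114 CPM in TC71 doxycycline. CD99 made up most of each sum and rose in both lines (0.62 in EW8 and 0.44 in TC71 on the log2 scale), whereas PAX7 fell in both, from 99.8 to 110 CPM down to 43.3 to 46.5 CPM in EW8 and from 100.2 to 111 CPM down to 41.8 to 45.8 CPM in TC71. Of the 5 markers, 1 rose and 3 fell in EW8, and 2 rose and 2 fell in TC71. The leukocyte marker PTPRC was not at 0 in EW8, with 59.6 to 69.2 CPM with vehicle and 72.4 to 77.4 CPM with doxycycline, and was at 0 to 0.145 CPM in TC71.

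Promoter sequence is shown for genes on which the results turn, to let the response be read beside the elements the pathway is known for. Of the 31 genes, 27 were in the RefSeq promoter table (GRCh38.p14), and ACAT2, FDFT1, SQLE and FASN were not. In the 250 bases before the start, the CCAAT motif on either strand was found in 17 of 27 genes (63.0%), compared with 33.0% of 27305 promoters, and 2 or more copies were found in 10 of 27 (37.0%), compared with 10.0%. An SRE (TCACNCCAC) was found in 1 of 27 (SREBF2), compared with 0.868% of all promoters. The E-box CACGTG was found in 3 of 27 (SC5D, SCAP and INSIG1), compared with 6.46%, and the AP-1 motif TGANTCA in 0 of 27, compared with 6.57%. In NSDHL, 2 CCAAT matches on opposite strands overlapped. For each gene the most upstream RefSeq start listed was used, which can differ from the start in the count table's annotation. The windows below run from base -190 to base -21 before that RefSeq start. Capitals mark matches to these 4 motifs, and a match in either direction is only a description of the letters.
SREBF2, chr22:41832915-41833084, plus strand: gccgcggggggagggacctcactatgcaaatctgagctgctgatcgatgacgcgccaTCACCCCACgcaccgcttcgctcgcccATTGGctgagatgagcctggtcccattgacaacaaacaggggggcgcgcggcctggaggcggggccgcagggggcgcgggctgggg
HMGCS1, chr5:43313433-43313602, minus strand: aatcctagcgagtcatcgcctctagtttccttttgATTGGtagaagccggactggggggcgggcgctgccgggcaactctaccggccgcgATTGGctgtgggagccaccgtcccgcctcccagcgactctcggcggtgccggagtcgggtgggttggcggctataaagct
TM7SF2, chr11:65111682-65111851, plus strand: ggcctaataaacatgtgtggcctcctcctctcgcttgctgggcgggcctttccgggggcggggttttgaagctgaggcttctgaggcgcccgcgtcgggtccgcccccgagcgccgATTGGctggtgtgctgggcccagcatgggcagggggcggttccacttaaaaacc
MSMO1, chr4:165327479-165327648, plus strand: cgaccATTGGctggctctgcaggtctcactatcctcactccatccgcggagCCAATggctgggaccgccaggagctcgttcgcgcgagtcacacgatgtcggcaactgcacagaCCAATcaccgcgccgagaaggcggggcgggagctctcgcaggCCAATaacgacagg
AACS, chr12:125065245-125065414, plus strand: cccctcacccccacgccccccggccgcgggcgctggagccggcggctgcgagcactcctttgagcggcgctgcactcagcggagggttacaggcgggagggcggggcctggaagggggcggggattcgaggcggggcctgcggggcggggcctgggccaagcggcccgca
ELOVL6, chr4:110198636-110198805, minus strand: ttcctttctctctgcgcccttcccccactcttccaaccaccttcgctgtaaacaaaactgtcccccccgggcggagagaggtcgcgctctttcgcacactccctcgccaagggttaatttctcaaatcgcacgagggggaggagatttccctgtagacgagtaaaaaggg
SREBF2 holds the SRE, HMGCS1 and TM7SF2 had the largest falls in EW8, and AACS, ELOVL6 and MSMO1 the largest rises in TC71. AACS and ELOVL6 held none of the 4 motifs in the 250 bases, whereas MSMO1 held 4 CCAAT copies. The ELOVL6 window lies wholly inside the span of that gene in the count table, chr4:110045846-110199199. It may therefore not be the promoter of the transcripts counted.

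The 31 genes covered a wide range of levels in vehicle-treated cells. Per length (RPKM, which is CPM divided by the summed exon length of the gene), SCD, the desaturase that makes monounsaturated fatty acids, was the highest of the 31 in all 4 groups, with 233 ± 8.88 RPKM (SD, n = 3) in EW8 vehicle and 294 ± 83.0 RPKM in TC71 vehicle. EBP, a sterol isomerase, was the second in EW8 with 127 RPKM and the ninth in TC71 with 44.7 RPKM. FASN, the fatty acid synthase, was the second in TC71 with 180 RPKM and the fourth in EW8 with 84.7 RPKM. AACS, which activates acetoacetate, was the lowest with 2.18 RPKM in EW8 and 0.553 RPKM in TC71. Without induction the lines differed at most of these genes: 14 were higher in TC71 and 11 were higher in EW8 at a Benjamini-Hochberg adjusted p under 0.05, compared with 28.2% and 33.5% of all tested genes. SQLE, the squalene epoxidase, differed most upward in TC71, by 1.57 ± 0.07 on the log2 scale (SE, adjusted p = 8.72e-13 by edgeR), followed by ELOVL6 (1.48), PMVK (1.42) and ACAT2 (1.38). AACS differed most in the other direction, by -1.98 ± 0.10 (adjusted p = 7.77e-12), followed by EBP (-1.50) and SREBF1 (-1.26). Without TC71 vehicle replicate 1, 19 genes were higher and 8 lower in TC71, compared with 31% and 29.8% of the genes tested then. SREBF1 was at -0.86 in that fit.

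**Figure D1:**
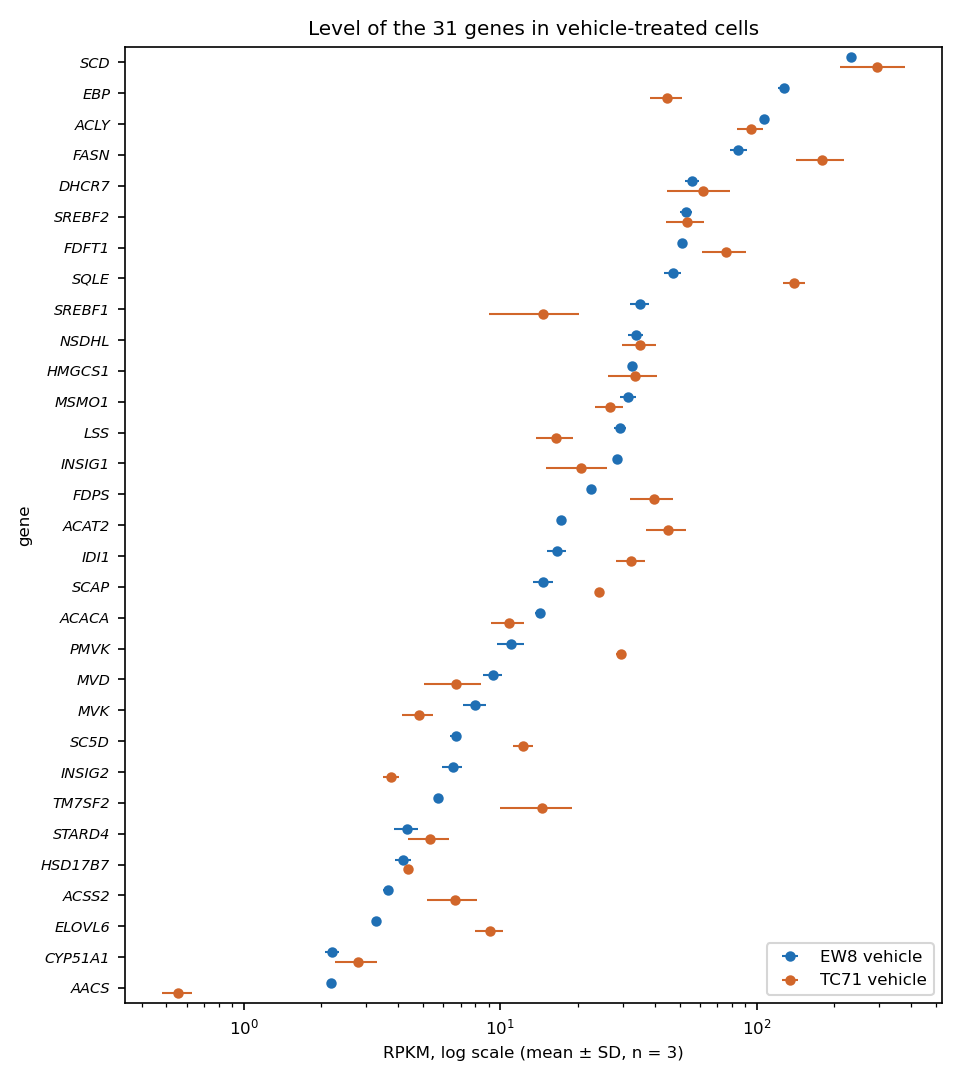
Level of the 31 genes in vehicle-treated EW8 and TC71 in RPKM on a log axis, as mean ± SD of 3 libraries, ordered by the level in EW8. SCD is at the top in both lines and AACS at the bottom, and EBP, SQLE, PMVK and AACS stand apart between the lines.

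With doxycycline, genes of sterol and fatty acid synthesis fell in EW8 and changed in both directions in TC71. In EW8, 15 of the 31 genes fell and 1 rose at an adjusted p under 0.05, compared with 22% of all tested genes that fell and 21.9% that rose. The log2 fold change was negative for 27 of 31 genes, with a median of -0.25, and the median over all tested genes was -0.03. The changes were modest. The study's fold limit, a log2 fold change beyond 1 in either direction, was also applied. Past it 2 genes were lower (HMGCS1 and TM7SF2) and 0 were higher, compared with 3.38% and 11.4% of all tested genes. The 15 became 8 without EW8 vehicle replicate 3, and 9 when any 1 of the 3 EW8 doxycycline libraries was left out. The share of all tested genes that fell was also lower in those fits, at 15.6% in the first and 15% to 16.1% in the others. In TC71, 11 of the 31 genes rose and 2 fell, compared with 25.1% and 20.4% of all tested genes. The median log2 fold change was 0.13, and that of all tested genes was 0. Past the fold limit were 2 genes that rose (AACS and ELOVL6) and 0 that fell, compared with 12.3% and 3.67%. Without TC71 vehicle replicate 1, however, 9 genes rose and 10 fell, compared with 22.1% and 23.9% of the genes tested then, and the median became -0.04. The summed CPM of the 31 genes was 5520, 5792 and 5930 in EW8 vehicle and 4687, 4782 and 4690 in EW8 doxycycline, so the EW8 groups did not overlap. In TC71 the sum was 5679 in vehicle replicate 1, 8155 and 8136 in the other two vehicle libraries, and 7912, 8227 and 7941 with doxycycline.

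**Figure D2:**
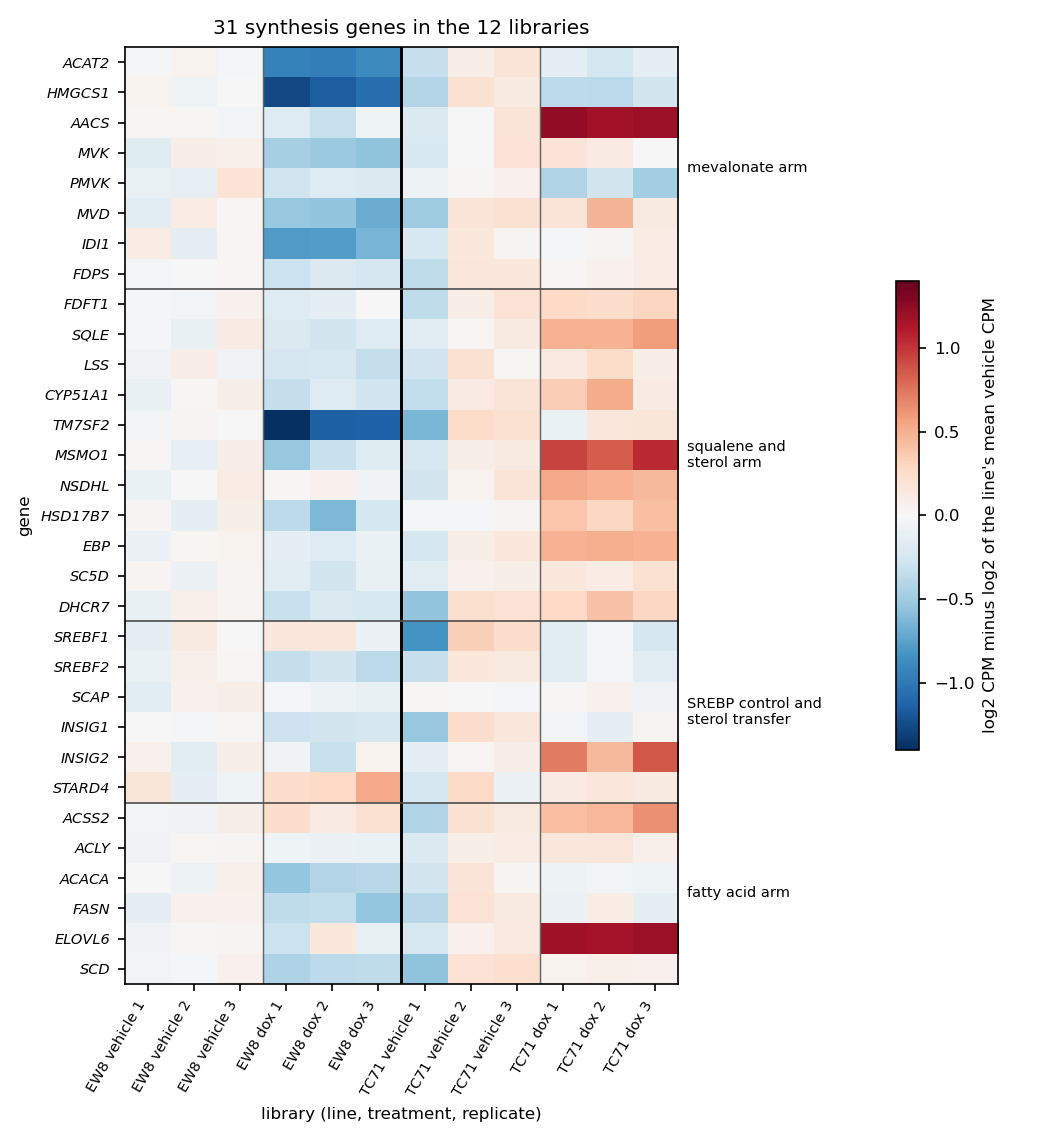
Log2 CPM of the 31 genes (rows, grouped by role) in the 12 libraries (columns), each minus the log2 of the mean vehicle CPM of the same line. Blue fills most rows of the EW8 doxycycline columns, and TC71 vehicle replicate 1 is bluer than the other two TC71 vehicle libraries in 29 of 31 rows.

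The difference between the responses was tested as an interaction, the TC71 response minus the EW8 response. It was positive for 28 of the 31 genes, with a median of 0.48 (0.04 over all tested genes, of which 53% were positive). It passed for 18 genes, all with the TC71 response above that of EW8, and for 0 in the other direction (0 also at an unadjusted p under 0.05, and 0 with DESeq2), compared with 12.2% and 7.07% of all tested genes. Past the fold limit were AACS, TM7SF2, MSMO1 and ELOVL6, 4 genes above and 0 below, compared with 4.18% and 2.87%. Without TC71 vehicle replicate 1 the signed value moved down for all 31 genes, by 0.12 to 0.41 on the log2 scale, so that negative values grew (SREBF1 from -0.21 to -0.62, STARD4 from -0.23 to -0.46 and PMVK from -0.16 to -0.32), and 14 genes passed above and 2 (SREBF1 and STARD4) below, compared with 9.45% and 14.1%. LSS, NSDHL, SC5D and ACACA were the 4 that no longer passed. The interaction uses the same libraries as the responses of each line and as the comparison of the vehicle groups, so these values are not independent of each other.

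**Figure D3:**
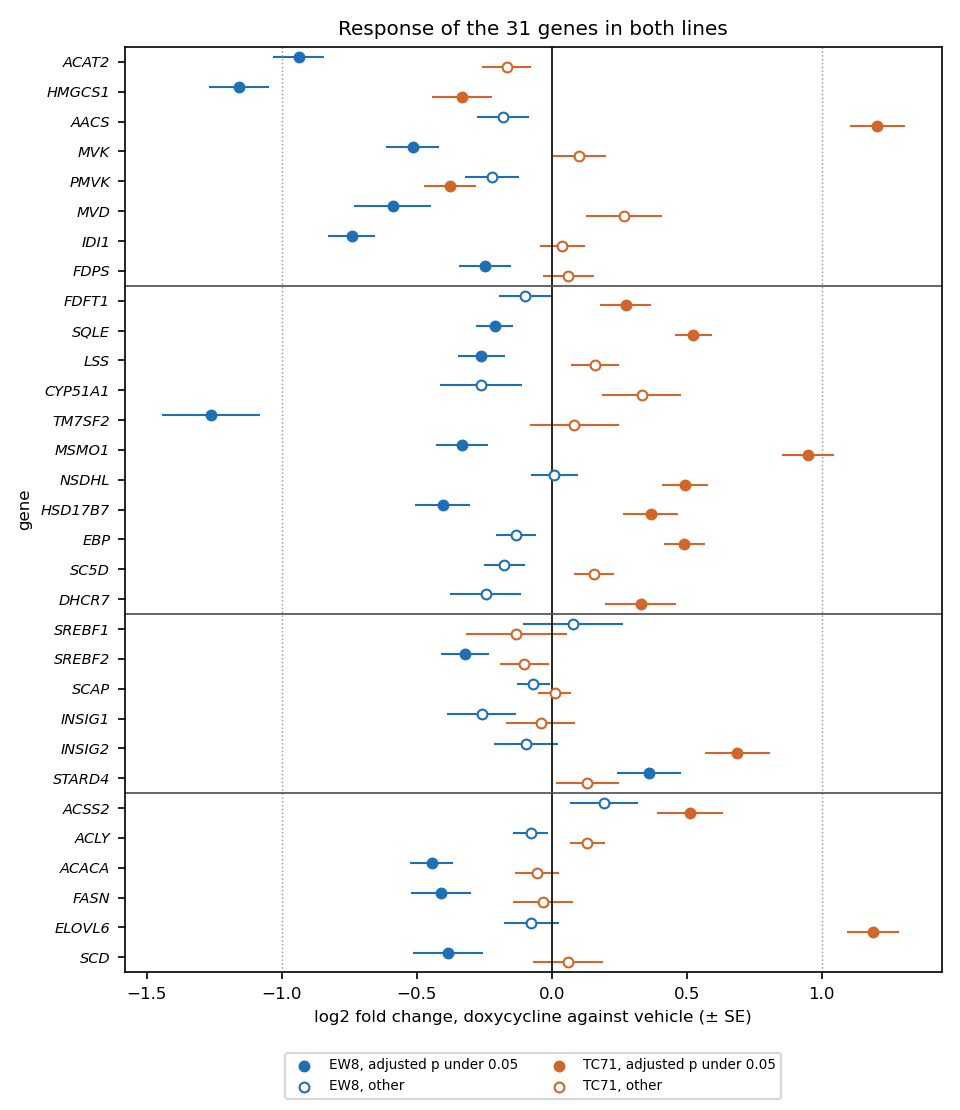
Log2 fold change (doxycycline against vehicle, ± SE) of the 31 genes in EW8 and TC71, with filled points for an adjusted p under 0.05 and dotted lines at the fold limit. EW8 points lie left of 0 for 27 of 31 genes, and AACS and ELOVL6 lie right of the limit in TC71.

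The mevalonate genes make isoprenoid diphosphates from acetyl-CoA. In EW8, 6 of 8 fell, compared with 22% of all tested genes, 2 did not pass, and the median log2 fold change was -0.55. In TC71, 1 rose, 2 fell and 5 did not pass, compared with 25.1% and 20.4% of all tested genes, with a median of 0.05. With TC71 vehicle replicate 1 left out, 1 rose and 4 fell (22.1% and 23.9% of all genes tested then), 7 of the 8 values were negative and the median was -0.15. HMGCS1 (ENSG00000112972.14, chr5:43289395-43313512, minus strand), which makes HMG-CoA, was at 158, 147 and 154 CPM in EW8 vehicle and at 63.7, 68.7 and 73.7 CPM with doxycycline. Every doxycycline library was below every vehicle library, and the log2 fold change was -1.16 ± 0.11 (SE, adjusted p = 1.07e-07). How many of all tested genes had groups that did not overlap was not counted, so non-overlap here and below only describes these libraries. In TC71 HMGCS1 was at 119, 183 and 173 CPM with vehicle and at 123, 122 and 133 CPM with doxycycline, so the groups overlapped through the first vehicle library. Its log2 fold change there was -0.33 ± 0.11 (adjusted p = 0.0189) and -0.58 ± 0.06 without that library, so HMGCS1 fell in both lines and fell further in EW8.

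ACAT2, the cytosolic thiolase that joins acetyl-CoA units, was at 72.9, 76.9 and 73.3 CPM in EW8 vehicle and at 38.6, 37.9 and 40.0 CPM with doxycycline. The groups did not overlap, and the log2 fold change was -0.94 ± 0.09 (adjusted p = 1.83e-07). In TC71 its log2 fold change was -0.17 and did not pass, but it was -0.38 and passed without vehicle replicate 1. Of its exon length, 52.3% is shared with other annotated genes, mainly SOD2-OT1 on the opposite strand, and reads in such stretches were not counted. IDI1, the isopentenyl diphosphate isomerase, was at 77.5, 65.6 and 72.8 CPM in EW8 vehicle and at 41.6, 42.0 and 45.7 CPM with doxycycline, again without overlap (-0.74 ± 0.09, adjusted p = 1.15e-06). MVD, which decarboxylates mevalonate diphosphate, was at 40.0, 47.5 and 45.1 CPM and at 30.7, 30.2 and 27.3 CPM in the same groups (-0.59 ± 0.14, adjusted p = 0.00239). MVK, the mevalonate kinase, was at 45.8, 55.0 and 54.3 CPM and at 37.4, 36.1 and 35.0 CPM (-0.51 ± 0.10, adjusted p = 0.000291). All 3 were lower in every EW8 doxycycline library than in any vehicle library, and in TC71 none of the 3 passed, with log2 fold changes of 0.04, 0.27 and 0.10. They became -0.14, -0.01 and -0.07 without TC71 vehicle replicate 1, and again none passed. Farnesyl diphosphate synthase, FDPS, fell slightly in EW8 (-0.25, adjusted p = 0.0451), but this fall passed in only 6 of the 19 alternative fits described below. In TC71 its value of 0.06 became -0.17 and passed without vehicle replicate 1. PMVK, the phosphomevalonate kinase, was at -0.22 without passing in EW8 and fell in TC71 (-0.38 ± 0.10, adjusted p = 0.00318), and the difference between the lines did not pass (-0.16, adjusted p = 0.504).

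AACS (ENSG00000081760.16, chr12:125065379-125143333, plus strand) differed from the other mevalonate genes. It was at 7.71, 8.92 and 10.1 CPM in TC71 vehicle and at 21.0, 20.2 and 20.5 CPM with doxycycline. Every doxycycline library lay above every vehicle library, and the gene rose by 1.21 ± 0.10 on the log2 scale (adjusted p = 1.47e-08), or 1.03 ± 0.10 without vehicle replicate 1. In EW8 AACS was at 35.6, 35.6 and 34.1 CPM with vehicle and 30.95, 28.3 and 33.6 CPM with doxycycline, a difference of -0.18 ± 0.10 that did not pass. Even after the rise, the TC71 libraries stayed below the EW8 libraries.

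The sterol genes turn farnesyl diphosphate into squalene, lanosterol and cholesterol. Of the 11, 5 fell and 0 rose in EW8, whereas 7 rose and 0 fell in TC71. Over all tested genes, 22% fell in EW8 and 25.1% rose in TC71. The median log2 fold change was -0.24 in EW8 and 0.33 in TC71. All 11 TC71 values were positive, and 9 of the 11 passed as higher in the interaction, compared with 12.2% of all tested genes. Without TC71 vehicle replicate 1, 9 of the 11 TC71 values were positive and the median was 0.11. In that fit 5 genes rose and 0 fell in TC71, compared with 22.1% and 23.9% of the genes tested then. Of the 11, 6 passed as higher in the interaction of that fit, compared with 9.45%. TM7SF2 (ENSG00000149809.14, chr11:65111845-65116384, plus strand), a sterol reductase, was at 18.9, 20.1 and 19.4 CPM in EW8 vehicle and at 6.73, 8.79 and 8.86 CPM with doxycycline. This was the largest fall of the 31 genes in EW8, by -1.26 ± 0.18 on the log2 scale (adjusted p = 1.47e-05). In TC71 TM7SF2 was at 31.8, 59.2 and 57.4 CPM with vehicle and at 46.3, 55.4 and 55.6 CPM with doxycycline, and the groups overlapped (0.08 ± 0.17, or -0.23 ± 0.10 without vehicle replicate 1, neither passed).

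MSMO1 (ENSG00000052802.12, chr4:165327623-165343160, plus strand), NSDHL and HSD17B7 act together to remove methyl groups from sterols made from lanosterol. MSMO1 was at 66.0, 81.5 and 83.8 CPM in TC71 vehicle and at 149, 139 and 159 CPM with doxycycline. The groups did not overlap, and the rise was 0.95 ± 0.10 on the log2 scale (adjusted p = 1.77e-07), or 0.77 ± 0.08 without vehicle replicate 1. In EW8 MSMO1 moved the other way, from 92.4, 84.0 and 97.2 CPM to 63.0, 73.3 and 81.1 CPM (-0.33 ± 0.10, adjusted p = 0.00887). NSDHL was at 58.6, 72.2 and 79.1 CPM in TC71 vehicle and at 101, 98.3 and 95.9 CPM with doxycycline (0.49 ± 0.09, adjusted p = 0.000113, or 0.30 ± 0.07 without vehicle replicate 1), while its EW8 value was 0.01. HSD17B7 also rose in TC71 (0.37) and fell in EW8 (-0.40). MSMO1, HSD17B7 and SQLE thus passed with opposite signs in the lines, and each did so as well without TC71 vehicle replicate 1. The falls in EW8 were less stable. Of the 19 alternative fits described below, they passed in 16 for MSMO1, 18 for HSD17B7 and 14 for SQLE.

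SQLE was at 540, 611 and 655 CPM in TC71 vehicle and at 846, 845 and 904 CPM with doxycycline (0.52 ± 0.07, adjusted p = 3.78e-06, or 0.37 ± 0.05 without vehicle replicate 1). In EW8 it went from 199, 189 and 220 CPM to 176, 170 and 179 CPM (-0.21 ± 0.07, adjusted p = 0.0171). EBP was at 90.6, 114 and 119 CPM in TC71 vehicle and at 151, 153 and 151 CPM with doxycycline, without overlap (0.49 ± 0.08, adjusted p = 3.16e-05, or 0.30 ± 0.05 without vehicle replicate 1). FDFT1, the squalene synthase, and DHCR7, the reductase of the last step of this route, passed as higher in TC71 (0.27 and 0.33), but neither did without vehicle replicate 1 (0.05 and 0.04). LSS, the lanosterol synthase, fell in EW8 (-0.26) and had a TC71 value of 0.16, or -0.04 without vehicle replicate 1, which passed in neither fit. SC5D, a sterol desaturase, passed in neither line (-0.17 and 0.15). CYP51A1, the lanosterol demethylase, also passed in neither line (-0.26 and 0.33), and 83.2% of its exon length is shared with other annotated genes, so that its 6.30 to 14.3 CPM come from the small remainder.

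**Figure D4:**
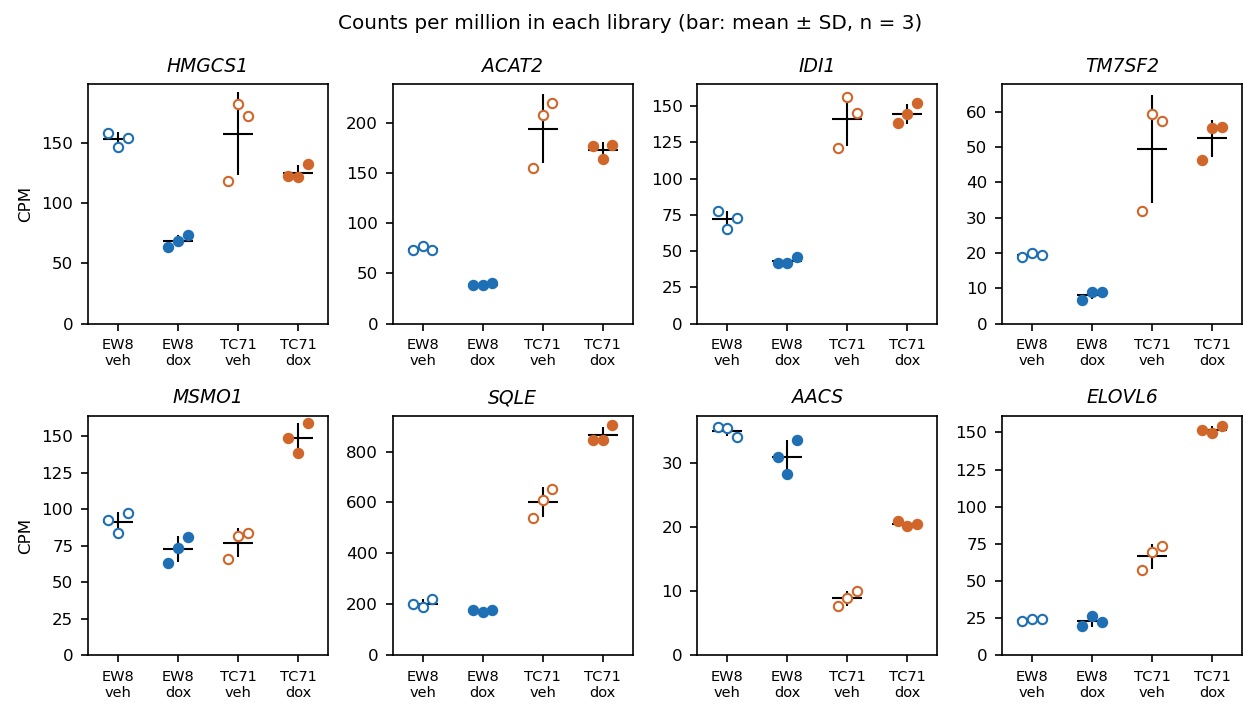
CPM in each library for 8 of the genes, with open points for vehicle, filled points for doxycycline, and a bar and line for mean ± SD (n = 3). The 3 EW8 doxycycline points lie below the vehicle points for HMGCS1, ACAT2, IDI1, TM7SF2, MSMO1, SQLE and AACS. Of these, the change of AACS in EW8 did not pass. The TC71 doxycycline points lie above the vehicle points for MSMO1, SQLE, AACS and ELOVL6.

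Of the 6 genes of SREBP control and sterol transfer, 1 rose and 1 fell in EW8 and 1 rose in TC71, with median log2 fold changes of -0.08 and -0.01. Over all tested genes 21.9% rose and 22% fell in EW8 and 25.1% rose in TC71. In the fit lacking TC71 vehicle replicate 1, 1 of the 6 rose and 3 fell in TC71, and the median was -0.19. Over all genes tested in that fit, 22.1% rose and 23.9% fell in TC71. SREBF2, whose product mainly drives sterol synthesis, fell in EW8 (-0.32 ± 0.09, adjusted p = 0.00728), from 375, 421 and 405 CPM to 318, 335 and 309 CPM. In TC71 its value was -0.10 with all libraries, and -0.32 and passed without vehicle replicate 1. SREBF1, whose product mainly drives fatty acid synthesis, did not pass in EW8 (0.08). In TC71 vehicle replicate 1 it was at 65.4 CPM, compared with 147 and 138 CPM in the other two, which gave it the lowest relative value of any of the 31 genes in that library. Its TC71 response was -0.13 and not passed with that library, and -0.50 and passed without it. SCAP passed in neither line (-0.07 and 0.01, the latter -0.06 without vehicle replicate 1). INSIG1 was at -0.26 in EW8 and -0.04 in TC71 and passed in neither, but without TC71 vehicle replicate 1 it passed as lower in both (-0.21 and -0.33). INSIG2 was at 13.7, 15.1 and 15.9 CPM in TC71 vehicle and at 24.3, 20.4 and 27.1 CPM with doxycycline, without overlap (0.69 ± 0.12, adjusted p = 0.000104), and its EW8 value was -0.10. STARD4, which carries cholesterol between membranes, was the 1 gene of the 31 that rose in EW8 (0.36 ± 0.12, adjusted p = 0.0188), and its TC71 value of 0.13, or -0.05 without vehicle replicate 1, did not pass.

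In the fatty acid arm, 3 of 6 genes fell in EW8 and 2 of 6 rose in TC71, with median log2 fold changes of -0.23 and 0.10, compared with 22% that fell in EW8 and 25.1% that rose in TC71 over all tested genes. Without TC71 vehicle replicate 1, 2 of the 6 rose and 3 fell in TC71, compared with 22.1% and 23.9% of the genes tested then. The median became -0.14. ACACA, which makes malonyl-CoA, was at 186, 177 and 195 CPM in EW8 vehicle and at 128, 139.9 and 142 CPM with doxycycline (-0.44 ± 0.08, adjusted p = 0.000198). FASN was at 723, 827 and 829 CPM and at 620.4, 625 and 543 CPM in the same groups (-0.41 ± 0.11, adjusted p = 0.0057). SCD fell in step, from 1218, 1224 and 1303 CPM to 926, 968 and 976 CPM (-0.38 ± 0.13, adjusted p = 0.0215). For each of these 3 genes the EW8 groups did not overlap. In TC71 these 3 genes did not pass with all libraries (-0.05, -0.03 and 0.06), and all 3 passed as lower without vehicle replicate 1 (-0.25, -0.28 and -0.24). ELOVL6 (ENSG00000170522.9, chr4:110045846-110199199, minus strand), which lengthens palmitate, was at 57.1, 69.2 and 73.4 CPM in TC71 vehicle and at 152, 149.8 and 154 CPM with doxycycline. Its log2 fold change was 1.19 ± 0.10 (adjusted p = 9.42e-09), or 1.01 ± 0.08 without vehicle replicate 1, whereas in EW8 it was -0.07 and not passed, with 23.1, 24.2 and 24.5 CPM before and 19.4, 26.6 and 22.2 CPM after. ACSS2, which makes acetyl-CoA from acetate, rose in TC71 from 26.7, 41.4 and 39.0 CPM to 47.8, 49.3 and 55.7 CPM (0.51 ± 0.12, adjusted p = 0.00199, or 0.26 ± 0.08 without vehicle replicate 1). ACLY, which makes it from citrate, passed in neither line (-0.08 and 0.13, the latter -0.04 without TC71 vehicle replicate 1).

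**Figure D5:**
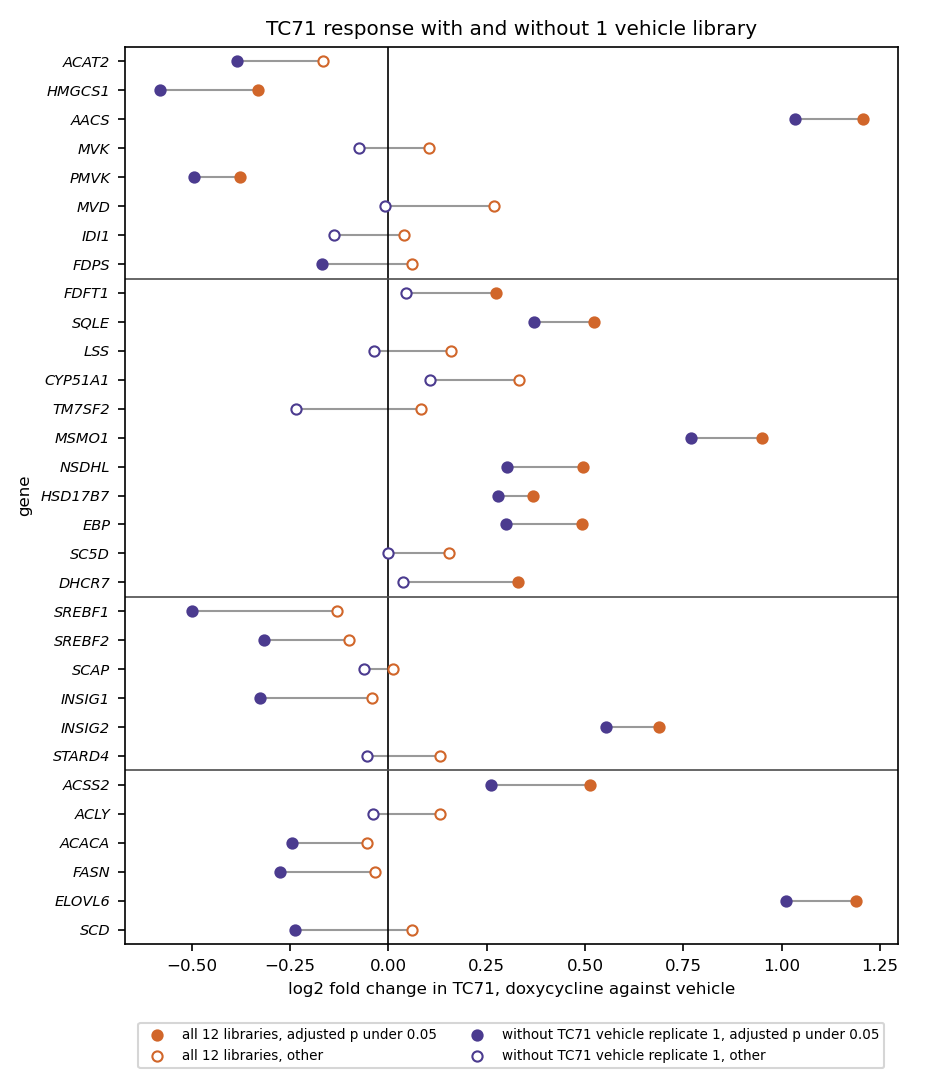
Log2 fold change of the 31 genes in TC71 with all 12 libraries and without TC71 vehicle replicate 1, filled where the adjusted p is under 0.05. All 31 points move left, and AACS, ELOVL6, MSMO1 and INSIG2 stay farthest right.

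Other lipid genes were counted in 7 further lists, beside 21.9% of all tested genes that rose and 22% that fell in EW8, 25.1% and 20.4% in TC71, and 22.1% and 23.9% in TC71 without vehicle replicate 1. Of 12 tested genes of sterol storage, transport and efflux, 7 rose, 1 fell and 4 did not pass in each line (medians of 0.66 in EW8 and 0.51 in TC71), and 6 rose and 1 fell in TC71 without vehicle replicate 1 (median of 0.40). ABCA1, the cholesterol exporter, went from 27.1, 26.0 and 25.5 CPM to 75.1, 80.0 and 79.5 CPM in EW8 (1.58 ± 0.23, adjusted p = 2.06e-05). In TC71 it went from 4.96, 17.01 and 12.4 CPM to 42.4, 39.5 and 40.4 CPM (1.82 ± 0.24, adjusted p = 5.24e-06, or 1.38 ± 0.10 without vehicle replicate 1). NPC1, which moves cholesterol out of lysosomes, rose in EW8 (1.13 ± 0.07, adjusted p = 1.53e-10) and in TC71 (0.94 ± 0.07, adjusted p = 1.65e-09). ABCG1, a related exporter, passed as lower in TC71 but had at most 3 counts in any library there, so no fold is given.

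Chain-modifying genes were mixed. Among 15 elongation and desaturation genes 3 rose and 7 fell in EW8, and 5 rose and 3 fell in TC71 (medians of -0.26 and 0.09). In TC71 without vehicle replicate 1, 4 rose and 5 fell (median of -0.03). ELOVL7, an elongase of long chains, rose in both lines (2.32 ± 0.12 in EW8 and 1.92 ± 0.14 in TC71), and so did FADS3, of the fatty acid desaturase family (1.08 ± 0.08 and 1.01 ± 0.08). The TC71 value of FADS3 was 0.95 ± 0.08 without vehicle replicate 1, which is under the fold limit. ELOVL2, an elongase of polyunsaturated chains, fell in both (-0.58 ± 0.15 in EW8 and -1.47 ± 0.19 in TC71). Of 8 activation genes 5 rose and 2 fell in EW8 and 6 rose in TC71 (medians of 0.54 and 0.58), and 6 rose in TC71 as well without vehicle replicate 1 (median of 0.37). ACSL4, an acyl-CoA synthetase with a preference for arachidonate, rose in both lines (0.74 ± 0.07 in EW8 and 1.10 ± 0.07 in TC71). Its TC71 value was 0.94 ± 0.06 without vehicle replicate 1, which is under the fold limit. SLC27A2 fell in EW8 (-1.41 ± 0.38) from 1.31, 0.480 and 1.55 CPM to 0.483, 0.237 and 0.548 CPM and had a TC71 value of 0.58 that did not pass. ACSL5 was at or under 6 counts in every vehicle library of both lines and at 1.06 to 2.44 CPM and 0.228 to 0.550 CPM after doxycycline. Of 13 glycerolipid genes 5 rose and 3 fell in EW8 and 6 rose and 3 fell in TC71 (medians of 0.09 and 0.25), with the same counts in TC71 without vehicle replicate 1 (median of 0.10). LPIN1, a phosphatidate phosphatase, rose in EW8 (1.44 ± 0.09) and in TC71 (1.73 ± 0.09), and the acyltransferases GPAT3 (2.38 ± 0.15) and AGPAT4 (1.24 ± 0.11) rose in EW8 and in TC71, respectively. The value of GPAT3 in TC71 was 0.17 and that of AGPAT4 in EW8 was 0.09, and neither passed. Of 7 genes for citrate export and NADPH 3 rose in each line, with 2 falling in EW8 and 1 in TC71 (medians of -0.02 and 0.19), but 1 rose and 3 fell in TC71 without vehicle replicate 1 (median of 0.10). MLXIPL, which encodes a glucose-responsive activator of lipid synthesis, rose in EW8 (1.23 ± 0.20), and in TC71 it was at most at 23 counts with vehicle and at 4 with doxycycline. In the isoprenoid branch, 0 of 11 genes rose and 2 fell in EW8, and 1 rose and 3 fell in TC71 (medians of -0.15 and -0.06), or 0 and 3 without vehicle replicate 1 (median of -0.16). In fatty acid oxidation, 1 of 12 genes rose and 5 fell in EW8, and 2 rose and 3 fell in TC71 (medians of -0.14 and -0.10), or 1 and 6 without vehicle replicate 1 (median of -0.22).

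Other measures moved with the treatment in both lines. All 10 proliferation markers (MKI67, TOP2A, CCNB1, CDK1, BUB1, AURKB, PLK1, CCNA2, PCNA, MCM2) fell, with the summed level going from 4083 to 4263 CPM down to 2938 to 3012 CPM in EW8 and from 2449 to 2620 CPM down to 1713 to 1756 CPM in TC71. The fibroblast list (DCN, LUM, PDGFRA, PDGFRB) went from 51.9 to 55.4 CPM down to 26.1 to 28.1 CPM in EW8 and from 55.4 to 88.3 CPM down to 28.5 to 31.7 CPM in TC71. PDGFRB made up most of these sums and fell in both lines (-1.08 and -1.42), as did DCN and LUM, whereas PDGFRA rose in EW8, from 0.557 to 1.08 CPM up to 2.31 to 2.70 CPM, and had a TC71 value of 0.13 that did not pass. The endothelial list (PECAM1, CDH5) went from 7.11 to 8.44 CPM up to 33.6 to 40.4 CPM in EW8 and from 0 to 0.0388 CPM up to 3.47 to 4.36 CPM in TC71. The rise in EW8 was that of PECAM1, from 6.45 to 8.01 CPM up to 32.7 to 40.1 CPM. CDH5 was at 0.359 to 1.83 CPM with vehicle and at 0.320 to 0.909 CPM with doxycycline in EW8 and did not pass. In TC71 CDH5 was at most at 0.239 CPM. The epithelial list (EPCAM, CDH1) was under 0.6 CPM in every EW8 library and went from 0.229 to 1.19 CPM up to 11.3 to 12.6 CPM in TC71. That rise was EPCAM alone, since CDH1 was at most at 0.0478 CPM in TC71. The part of these measures in the responses of the 31 genes was not tested, and in bulk RNA fewer cells of a type and less RNA per cell cannot be told apart.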

How the data were processed

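RNA was measured in 12 libraries, 3 in each of 4 groups taken from the sample labels. Per the labels, the libraries were made with a stranded mRNA kit. Per the study's methods, the authors sequenced read pairs, checked them with FastQC and aligned them with STAR to hg38. The deposited values are raw counts per gene, which the authors made with featureCounts 2.0.1 and GENCODE 29 annotation. Per the file header, pairs, strand, multi-mapped reads and overlapping genes had no option set, so each mate was counted, strand was ignored, and reads on more than 1 gene were left out. The SD and SE values given reflect the spread between libraries. The floor covers counting error only, and reads from PCR are not independent molecules. A group with at most 6 counts (3 pairs) in each library was taken as being at the floor. The exon length deposited by the authors is in bases.

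From these counts, genes were filtered with filterByExpr (21013 of 58721 kept, with 99.95% of the counts), scaled by TMM and tested with the edgeR 4.0.16 quasi-likelihood test in R 4.3.3. One fit held all 12 libraries and the 4 groups (common dispersion 0.0143, prior degrees of freedom 9.37). Adjustment was by Benjamini-Hochberg, over every gene tested. A gene passed at an adjusted p under 0.05, and the fold limit, which follows the study, is a log2 change beyond 1 in either direction. The authors used DESeq2, and version 1.42.0 was an alternative here. CPM uses the TMM scaling, and RPKM divides it by exon length. The fit was tested on simulated data. Symbols were matched for 99.1% of the genes.

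The 31 genes and the 7 further lists were chosen with earlier results of these data known. All 31 are named. Values in every library are given for those past the fold limit in a line or in the interaction, and, up to 8 in each line, for those with the largest absolute log2 fold change among those that passed. SREBF2 and SCD are given in addition. Of each further list, at most 2 genes past the fold limit in a line are named. No column of per-sample values was left unused. One further list and a marker list are not reported here.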

Additional observations from a re-analysis of the deposited data

Results flagged for a closer look

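For 18 of the 31 genes the response differed between the lines by the edgeR interaction test, and in each of them the TC71 response was above that of EW8. The differences on the log2 scale were 1.39 for AACS, 1.35 for TM7SF2, 1.28 for MSMO1 and 1.26 for ELOVL6. They were 0.86 for MVD, 0.83 for HMGCS1, 0.78 for INSIG2, 0.78 for IDI1, 0.77 for ACAT2, 0.77 for HSD17B7 and 0.74 for SQLE. They were 0.62 for EBP, 0.62 for MVK, 0.57 for DHCR7, 0.48 for NSDHL, 0.42 for LSS, 0.39 for ACACA and 0.33 for SC5D. Without TC71 vehicle replicate 1 the same 4 leading genes were at 1.17, 0.98, 1.06 and 1.04. For AACS and ELOVL6 the difference came with a rise in TC71 and an EW8 value that did not pass, for TM7SF2 with a fall in EW8 and a TC71 value that did not pass, and for MSMO1 with changes in both lines. FOS and JUN rose further in TC71 as well, by 2.21 and 0.73 on the log2 scale, and the part of that in these differences was not tested. Dixon's test for a far value was not run, since groups of 3 are not tested with it.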

How the results depend on the processing

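Scaling, filtering, DESeq2, a fit of only the groups compared, a replicate block and leaving out each library were tried, 19 alternatives for the responses of the lines and 18 for the interaction. ACACA, ACAT2, HMGCS1, IDI1, MVD, MVK and TM7SF2 passed as lower in EW8 in all 19. In TC71, AACS, ACSS2, EBP, ELOVL6, HSD17B7, INSIG2, MSMO1, NSDHL and SQLE passed as higher, and PMVK as lower, in all 19. In the interaction 11 of the 18 genes passed in all 18. Leaving out 1 library gave 0 to 2 genes up and 8 to 17 down in EW8, 9 to 13 up and 1 to 10 down in TC71, and 12 to 21 above and 0 to 2 below in the interaction. Over all tested genes, 19.4% to 24.7% rose and 15% to 21% fell in EW8 in those fits. In TC71 21.6% to 24.1% rose and 17.1% to 23.9% fell, and in the interaction 6.66% to 11.1% were above and 5.42% to 14.1% below. The 10 down in TC71 and the 2 below in the interaction came without TC71 vehicle replicate 1. In that fit FDPS and SCD passed in TC71 with the opposite sign (-0.17 and -0.24), and ACLY between the vehicle groups changed from -0.18 to 0.024. The cause was not tested. Over all libraries left out, FDPS ran from -0.169 to 0.145, SCD from -0.238 to 0.171, and ACLY from -0.219 to 0.024. With only the groups compared, 2 genes were higher in EW8 and 1 was lower in TC71, compared with 27.5% and 20.7% of the genes tested then. With the fold limit, where fewer genes can pass by construction, EW8 had 0 genes up and 2 down and TC71 had 2 up and 0 down. With it 4 were above in the interaction, and 6 above and 3 below between the vehicle groups. The share of all tested genes past the fold limit between the vehicle groups is not given here. Whether 6 and 3 are many or few therefore cannot be read from these counts. With a replicate block 1 gene rose and 15 fell in EW8, compared with 21.2% and 21.1% of all tested genes. In TC71 11 rose and 2 fell, compared with 24.5% and 19.6%. The interaction had 19 above and 0 below, compared with 11.4% and 6.4%. Deviations of same-numbered libraries correlated at -0.16, 0.22 and 0.07 in EW8 and 0.03, 0.19 and -0.08 in TC71. The best correlation with another number was 0.28, 0.16 and -0.004 in EW8 and 0.16, -0.03 and 0.09 in TC71. Such values from 3 libraries a group cannot decide whether the replicate numbers pair the samples. With 3 libraries a group, smaller changes may go undetected.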
